A study of Mus musculus with 74 samples.

Results

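Gm21082 and Gm13150 are KRAB zinc finger proteins (KRAB-ZFPs) encoded in a gene cluster on mouse chromosome 4, and their ChIP-seq peaks were taken by name from the deposited peak table: 2211 peaks for Gm21082 and 98 for Gm13150, or 2309 of 53011 peaks. The pair was chosen by a measured value, the overlap of their peaks in repeats, so that overlap is a description below. Both proteins were overexpressed from integrated vectors in F9 EC cells, a mouse embryonal carcinoma line, and each was assayed in 1 sample, which leaves the values below without replicate error and without tests. Gm21082 carried an N-3XFLAG tag, was precipitated with a FLAG antibody and was called against F9 input and a FLAG control ChIP. Gm13150 carried a C-3XHA tag, was precipitated with an HA antibody and was called against the same F9 input and an HA control ChIP. Both were mapped with the same Bowtie settings and called at a p-value under 1e-10 and an enrichment over 20, and protein, tag, antibody and control ChIP cannot be told apart as sources of a difference between them. The other 56 KRAB-ZFPs assayed in F9 cells, with 41580 peaks, serve as the background. Of these 56, 32 were called at the same settings as both proteins and the rest at looser ones. They include FLAG and HA samples, and a group of the HA samples was mapped with Bowtie2 and had another control. A background share thus pools unlike calls. A peak table holds no expression, so the labelled cell line was not checked against markers.

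KRAB-ZFPs bind DNA through an array of zinc fingers and recruit the corepressor KAP1 through their KRAB domain, and KAP1 in turn brings a histone methyltransferase that deposits H3K9me3. Many of them bind transposable elements. IAP elements are endogenous retroviruses that are still able to move in the mouse genome, and like other retroviruses they carry a long terminal repeat (LTR) at each end, which holds the promoter of the element. The cAMP response element, TGACGTCA, is a palindrome bound by the CREB and ATF family of transcription factors and occurs in promoters of cellular genes and of retroviruses.

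The sequence most of the results turn on is a 30-base oligo that the study designed as a reporter target of Gm21082 from the IAP LTR subfamily IAPLTR1_Mm. It is given here because copies of it lay in peaks of both proteins, and the capitals mark the palindrome TGACGTCA at positions 16 to 23, counted from 1 at the 5′ end of the oligo.
Oligo: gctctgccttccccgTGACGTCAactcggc
The next lines give chosen kinds of near copy in mm9, each as the first such copy along the chromosomes. The substituted bases are in capitals. Each is named with the oligo's base, its position and the genome's base. T21A alone was the commonest kind, with 899 copies. Kinds with T21A and a further substitution, such as C19T (105 copies), are not printed, and G1A alone had 27 copies.
T21A, chr1:3988101-3988130, minus strand: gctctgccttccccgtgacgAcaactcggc
C13T, chr1:3021652-3021681, minus strand: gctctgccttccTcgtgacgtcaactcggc
G1A, chr1:35845460-35845489, plus strand: Actctgccttccccgtgacgtcaactcggc
G1A C11T, chr2:39381582-39381611, plus strand: ActctgccttTcccgtgacgtcaactcggc
G1A C11T A24G, chr1:37335870-37335899, minus strand: ActctgccttTcccgtgacgtcaGctcggc
The last line shows a whole 200 bp window of Gm21082 at a shared locus on chromosome 10, among the loci with the largest fold in both ChIPs, with its exact copy of the oligo in capitals and the sequence around the copy in lower case.
Shared locus chr10:98560929-98561128, minus strand: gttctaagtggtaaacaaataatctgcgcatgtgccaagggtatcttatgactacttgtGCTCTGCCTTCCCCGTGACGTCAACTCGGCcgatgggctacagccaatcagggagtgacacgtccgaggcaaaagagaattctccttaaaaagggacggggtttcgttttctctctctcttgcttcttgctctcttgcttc

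The peak sets differed in size and in quality. The fold enrichment over local background of Gm21082 peaks lay between 20.01 and 212.12 (median 32.02), and that of Gm13150 peaks between 20 and 80.28 (median 31.36). The lowest values lie just inside the enrichment threshold at which both sets were called. The number of tags (reads) in a peak had a median of 36 for Gm21082 and 78 for Gm13150, and tags in all peaks summed to 88214 and 9822. These sums cover called peaks only, and the depth of the libraries is unknown, so the absence of a call at a locus was not read as absence of binding. The false discovery rate of a peak, which the peak caller estimates by swapping ChIP and control, was at most 0.03% for Gm21082. For Gm13150 it spanned 10.9% to 100% (median 25.98%), and only 38 of the 98 peaks lay under 25%. Only 4 of the other 56 F9 KRAB-ZFPs had a median at or above this value, and none of the 32 called at the same settings, where the highest was 11.11%. Every statement on Gm13150 below rests on peaks of this quality.

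Copies of the oligo were found in most Gm21082 peaks and in a large minority of Gm13150 peaks. With up to 3 mismatches allowed, a copy lay in 1817 of 2211 windows of Gm21082 (82.2%, 95% Wilson interval 80.5% to 83.7%) and in 39 of 98 windows of Gm13150 (39.8%, 30.7% to 49.7%). These intervals, like all below, cover counting error only. Among the other F9 peaks the share was 0.00481%, from 2 of 41580 peaks, 1 of Zfp534 and 1 of Zkscan17. The best copy was exact in 1667 Gm21082 windows and 35 Gm13150 windows. A single mismatch was present in 91 and 4 of them. The remaining Gm21082 windows had 2 mismatches in 18 cases and 3 in 41, and no Gm13150 window had a best copy with 2 or 3. The oligo was made by the study from its own Gm21082 peaks, so the share in Gm21082 is not independent of the choice of sequence. The share in Gm13150 depended on the filter: it was 71.1% (27 of 38) among peaks with a false discovery rate under 25% and 25.7% (19 of 74) among those with a score over 200. A low false discovery rate did not mark the stronger peaks. The peak of largest fold, 80.28, had a rate of 100%, and the peak at Ripk2, with a fold of 20, had 21.9%. The median fold of Gm13150 was 27.6 in windows with a copy and 33.9 in windows of median copy number 1.

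**Figure D1:**
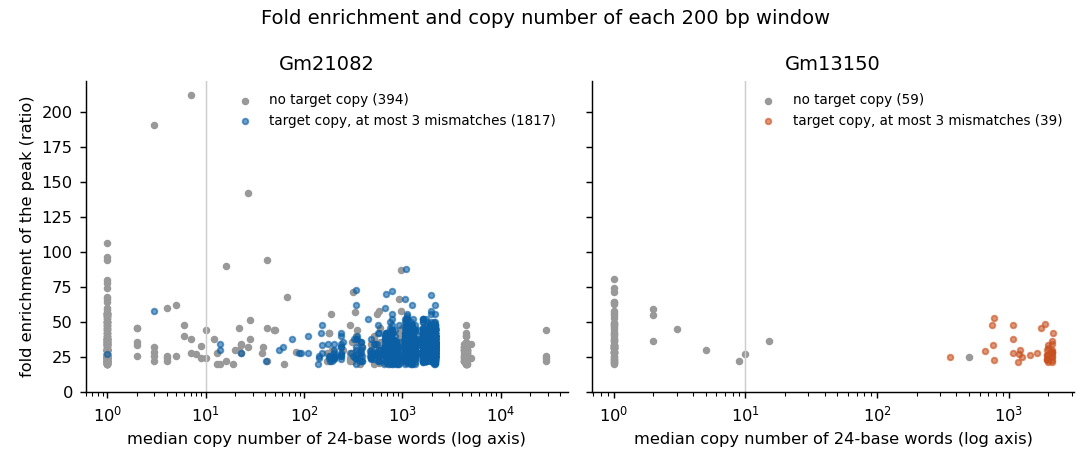
Each point is a peak of Gm21082 (left) or Gm13150 (right), with the median copy number of the 24-base words of its 200 bp window in mm9 on a log horizontal axis and the authors' fold enrichment on the vertical axis. Colour marks the 1817 and 39 windows with a copy of the oligo (at most 3 mismatches), and the grey line marks 10 copies. The Gm13150 windows fall into a group at copy number 1 and a group of far higher copy number, while the strongest peaks of both proteins hold no copy.

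The copy number of the sequence under the peaks followed the same division. A window was called multi-copy where the median 24-base word occurred at least 10 times in mm9. This held for 91.9% of Gm21082 windows (90.6% to 92.9%), the highest value of the 58 F9 KRAB-ZFPs. Gm14406, with 91.6%, lay inside this interval, and Gm14410 with 80.3% and Rex2 with 77.6% followed. The median copy number over all windows was 7796 for Gm14406 and 1166 for Gm21082. Gm14406 and Gm14410 were mapped with Bowtie2 and had another control. Gm13150 ranked 9th with 42.9% (33.5% to 52.7%), between Zfp808 with 49.4% and Zfp429 with 37.8%, followed by Zfp810 with 35.0%. The background over the other F9 peaks was 25.6%. The Gm21082 set consisted of 1815 multi-copy windows with a copy of the oligo, 216 multi-copy windows without one, 154 windows of median copy number 1 without one, 1 such window with one, and 25 between. The Gm13150 set consisted of 39 multi-copy windows with a copy, 3 without, 50 of median copy number 1 and 6 between. Most Gm13150 windows thus either held a copy of the oligo (39) or had a median copy number of 1 (50). The share with a copy depended on the peak filter, as given above. The median copy number was 1964 in Gm13150 windows with a copy of the oligo and 1244 in multi-copy Gm21082 windows with one.

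Seen from the genome, Gm21082 peaks covered most exact copies of the oligo and few of the others. mm9 held 2110 exact copies, and 1667 of them lay in a Gm21082 window (79.0%, 77.2% to 80.7%). The share was 8.30% of 1097 copies with 1 mismatch, 2.22% of 812 with 2, 8.95% of 458 with 3, and 1 of 227 with 4. No copy with 5 or 6 mismatches lay in one. Gm13150 windows held 35 exact copies (1.66%, 1.20% to 2.30%) and 4 copies with 1 mismatch (0.365%). Of the 39 copies in Gm13150 windows 34 lay in a Gm21082 window too. The authors placed a read that matched several copies equally well at one of them at random, and 1994 of the exact copies hold no 47-base word that is found at a single place, so a peak on a copy may consist of reads from other copies. Among the 116 exact copies with at least 1 such word, 88 lay in a Gm21082 window (75.9%, 67.3% to 82.7%), against 79.2% of those without (77.4% to 80.9%). A single such word leaves most reads of a copy without a fixed place, and only 2 exact copies had at least 50% of their words found at a single place, 1 of them in a Gm21082 window. Over copies of up to 3 mismatches, the 1412 with such a word were in Gm21082 windows in 9.70% of cases against 40.6% of all 4477, and only 116 of those 1412 were exact.

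**Figure D2:**
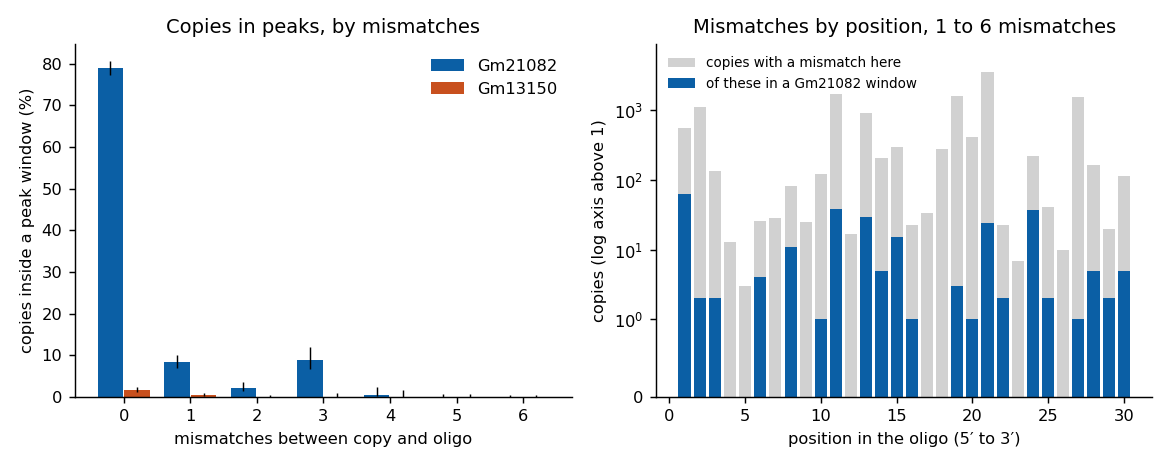
Left, the share of mm9 copies of the oligo that lay in a peak window of Gm21082 or Gm13150, in percent, by the number of mismatches; lines are 95% Wilson intervals. Right, on a log axis, the number of copies with a mismatch at each position of the oligo and how many of them lay in a Gm21082 window. The share fell from 79.0% of exact copies to 8.30% with 1 mismatch, and the mismatch at position 21 was the most frequent and seldom in a peak.

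The kind of substitution went with whether a near copy lay in a peak. The kinds described here were chosen after their values were seen. T21A, which changes the palindrome to TGACGACA, was the only difference in 899 copies, and 9 of them lay in a Gm21082 window (1.00%, 0.53% to 1.89%). Adding C19T gave 0 of 105 copies, upper Wilson limit 3.53%, and adding G15A gave 2 of 84. Copies with only C13T, 5′ of the palindrome, were in a window in 29 of 96 cases (30.2%, 21.9% to 40.01%), and those with only G1A in 18 of 27 (66.7%, 47.8% to 81.4%). C8T alone gave 4 of 23. Over all copies with a single mismatch, 13 of 908 with it inside TGACGTCA were in a Gm21082 window (1.43%, 0.84% to 2.43%), against 78 of 189 with it outside (41.3%, 34.5% to 48.4%). The first of these shares is nearly that of T21A, since only 9 copies had another single mismatch inside, and 4 of those lay in a window. With 2 or 3 mismatches the shares were 14 of 1057 where at least 1 fell inside and 45 of 213 where all fell outside (21.1%, 16.2% to 27.1%).

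Not all differences outside the palindrome were alike. Copies with G1A and C11T were in a Gm21082 window in 1 of 66 cases (1.52%, 0.27% to 8.10%), while copies that carried A24G in addition were in 36 of 72 (50%, 38.7% to 61.3%). These 36 are most of the 41 windows whose best copy had 3 mismatches. The 4 Gm13150 copies with a single mismatch included 2 with G1A, and no copy with T21A or C13T lay in a Gm13150 window. The copies also differed around the oligo: in copies with T21A alone the commonest base differed from that of exact copies at 9 of the 40 positions 5′ of the oligo and 1 of the 40 positions 3′, in those with C13T at 8 and 1, and in those with G1A at 3 and 0. The part of the flanking differences was not tested.

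The summits of both proteins fell on the oligo. Measured along the strand of the copy, the median Gm21082 summit was 3.5 bp from its middle (quartiles -4.5 and 11.5 bp, 1817 peaks), and 99.0% of them (98.4% to 99.3%) were within 50 bp. The median Gm13150 summit was at -5.5 bp (quartiles -19 and 3.5 bp, 39 peaks), that is on the 5′ side, and 94.9% (83.1% to 98.6%) were within 50 bp. Within the oligo itself lay 70.3% of Gm21082 summits and 51.3% of Gm13150 summits. The palindrome TGACGTCA was present in 98.5% of Gm21082 windows with a copy, at a median of 8 bp from the summit. Since it is part of the oligo, its presence and place follow largely from the choice of these windows.

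**Figure D3:**
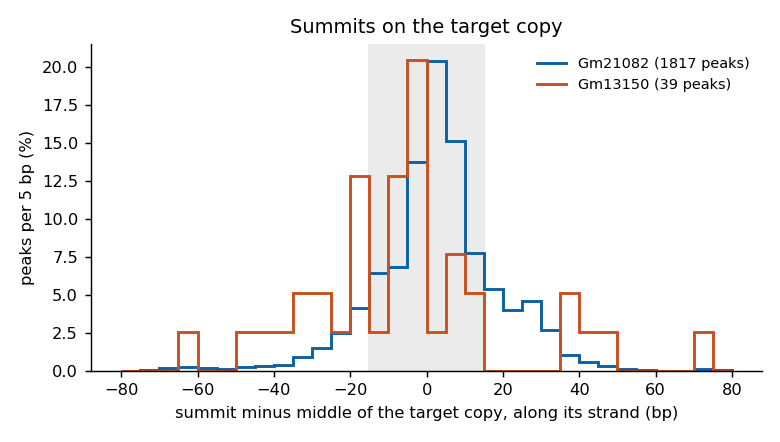
Distribution of summits around the middle of the copy of the oligo, in bp along its strand, as the percent of peaks in each bin of 5 bp; the grey band is the 30 bp of the oligo. The 1817 Gm21082 summits centre on 3.5 bp and the 39 Gm13150 summits on -5.5 bp, with a wider spread.

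The fold of Gm21082 peaks was somewhat lower at near copies than at exact ones, with overlapping quartiles. The median fold was 34.0 at exact copies (quartiles 29.8 and 38.02), 28.0 with 1 mismatch (24.01 and 33.3), 25.015 with 2 and 28.0 with 3, and 30.02 in windows with no copy; across the 1817 peaks on a copy Spearman's rho between mismatches and fold was -0.17. For Gm13150 the median fold was 27.6 at 35 exact copies and 42.6 at 4 copies with 1 mismatch (rho 0.39 across 39 peaks). The peaks in each of these correlations come from a single library, and only copies that reached the enrichment threshold enter them.

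A provirus carries an LTR at each end, while a solitary LTR has no partner, and the distance between neighbouring summits was therefore measured. Of all Gm21082 summits, 56.1% (54.0% to 58.1%) had another Gm21082 summit 4000 to 9000 bp away, and among those on a copy of the oligo the share was 66.4%. The 621 neighbouring pairs in this range lay at a median of 6701 bp (quartiles 4928 and 6765 bp), and 326 pairs fell in the bin from 6.5 to 7 kb. Neighbouring copies of the oligo on the same strand also fell most often in that bin, with 582 pairs. For Gm13150 only 4 of 98 summits had such a neighbour (4.08%, 1.5985% to 10.03%). Among the other F9 KRAB-ZFPs the highest shares were 24.4% for Gm13157, 11.02% for Zfp429 and 6.50% for Zkscan17, and the median was 0%. In 890 pairs of exact copies on the same strand at this distance, Gm21082 windows held both copies in 565 pairs, 1 copy in 283 and neither in 42. Gm13150 windows held both copies in 2 pairs and 1 copy in 26. Exact copies without such a partner lay in a Gm21082 window almost as often as those with one, in 77.6% (72.5% to 82.0%) against 79.2% of cases.

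**Figure D4:**
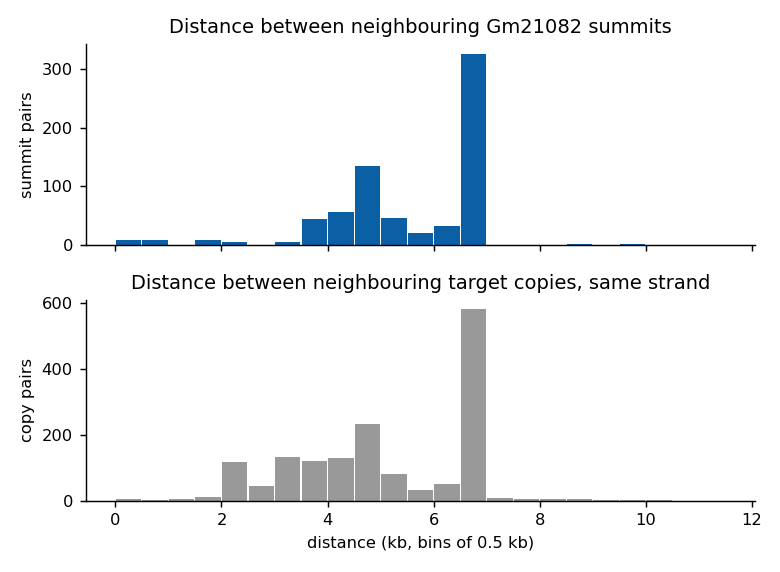
Histograms of the distance between neighbouring Gm21082 summits (top) and between neighbouring copies of the oligo on the same strand (bottom), in kb with bins of 0.5 kb. Both have their highest bin at 6.5 to 7 kb, with 326 and 582 pairs, and a lower peak at 4.5 to 5 kb, with 135 and 234 pairs.

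The sets met at 50 loci, where 200 bp windows overlapped by at least 25%. These were 51.02% of the Gm13150 peaks (41.3% to 60.7%) and 2.26% of the Gm21082 peaks (1.72% to 2.97%). In the background, 0.291% of the other F9 peaks overlapped a Gm21082 window and 0.0313% a Gm13150 window. Of the 50 loci 34 were on a copy of the oligo in both sets, 14 had a median copy number of 1 and 2 were of other kinds, and 45 were called in no other KRAB-ZFP. The locus at 116192196 on chromosome 6 was called in 8 KRAB-ZFPs, these included. Of the Gm13150 windows with a copy of the oligo 35 of 39 were shared (89.7%, 76.4% to 95.9%). Most of these windows held an exact copy, and Gm21082 windows held 79.0% of all exact copies in mm9, which is inside this interval. Of the Gm13150 windows with median copy number 1 14 of 50 were shared (28.0%, 17.5% to 41.7%). From the other side, 1.87% of Gm21082 windows with a copy and 14 of 155 Gm21082 windows of median copy number 1 (9.03%, 5.46% to 14.6%) were shared. The samples share the F9 input, whose part in these shared loci was not tested. With only the 38 Gm13150 peaks under a false discovery rate of 25%, 60.5% were shared. Those 23 loci are 1.04% of the Gm21082 peaks.

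At the shared loci the summits nearly coincided. They were identical at 4 loci, within 20 bp at 33 and within 40 bp at 47, with a median distance of 13.5 bp. Along the strand of the copy the Gm13150 summit lay 5′ of the Gm21082 summit at 23 of 34 loci, at a median of -10 bp. At the 14 loci of median copy number 1, where reads have a single place, the median distance was 7 bp and the largest 34 bp. The fold was higher in Gm21082 at 39 of the 50 loci, and the folds of the pair had a Spearman's rho of 0.37 across the 50 loci. Among Gm21082 windows of median copy number 1, the fold had a median of 54.3 at the 14 shared loci and 30.02 at the 141 others. The Gm13150 fold had a median of 47.04 at the 14 shared and 31.7 at the 36 others. On copies of the oligo the medians were 36.0 at shared and 32.0 at other loci for Gm21082.

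**Figure D5:**
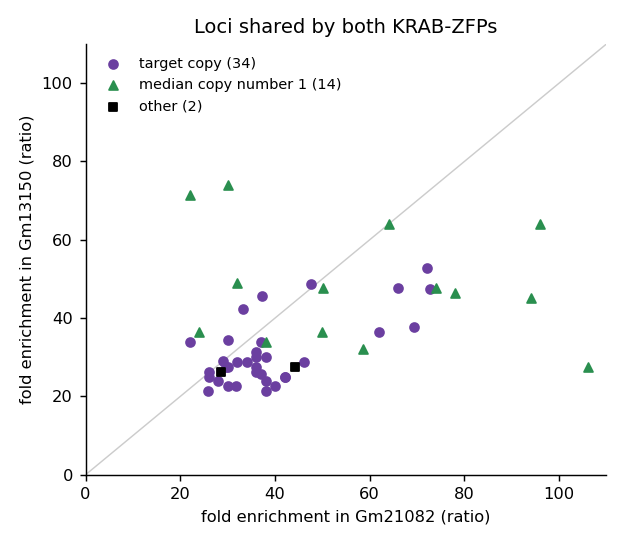
Fold enrichment in Gm21082 (horizontal) and Gm13150 (vertical) at the 50 shared loci, with shape and colour marking loci on a copy of the oligo (34), of median copy number 1 (14) and others (2). The grey line marks equal folds; 39 loci lie on the side of higher fold in Gm21082.

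The shared loci of median copy number 1 included sites in and near protein-coding genes. At Hnrnpa2b1, which encodes an RNA-binding protein of the spliceosomal machinery and lies head to head with Cbx3, the gene of the heterochromatin protein HP1 gamma, both summits were at chr6:51419042. The site is in an intron 851 bp downstream of the Hnrnpa2b1 start, and the fold was 50.1 in Gm21082 and 47.7 in Gm13150, where the false discovery rate was 50%. At Lin54, a DNA-binding subunit of the DREAM complex that regulates cell cycle genes, both summits were at chr5:100929843, 185 bp upstream of the start, with a fold of 78.0 in Gm21082 and 46.4 in Gm13150. At Sgol1, the shugoshin that protects centromeric cohesin, both summits were at chr17:53824984 in an intron. The fold there was 64.0 in each ChIP, from 74 tags in Gm21082 and 154 in Gm13150. At these 3 sites, all of median copy number 1, the ChIPs had the same summit.

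Other shared sites lay in introns or between genes. The largest Gm21082 fold at a site of median copy number 1, 106.1, was in an intron of Drd2, the dopamine D2 receptor, where Gm13150 had 27.6. The next, 96.1, was between genes at chr5:112555624, 119889 bp from Cryba4, a lens crystallin gene, where Gm13150 had 64.0 at a false discovery rate of 100%. In an intron of Gng7, a G protein gamma subunit, the folds were 94.1 and 45.2. Peli3, an E3 ubiquitin ligase gene, and Bmp7, a secreted growth factor gene, were sites with the higher fold in Gm13150. Gm13150 had 71.5 at Peli3 and 48.9 at Bmp7, and Gm21082 had 22.0 and 32.0. Introns of Rassf3, Apbb2 and Lig1, the replicative DNA ligase, were shared with folds of 38.02, 58.49 and 24.01 in Gm21082 and 33.9, 32.2 and 36.4 in Gm13150.

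Some of these sites held a short run of the oligo. 4 with runs of at least 8 bases are printed because their windows hold no copy of the oligo and are of median copy number 1, with the run identical to the oligo in capitals.
Hnrnpa2b1, chr6:51419030-51419059, minus strand: taaaggctCTCTGCCTTCCCCtcgacgaaa
Lin54, chr5:100929816-100929845, minus strand: tggagttccccGCCTTCCCtttgacggagg
Between genes near Cryba4, chr5:112555604-112555633, plus strand: ctcccacctgaTGCCTTCCagagaactatc
Drd2, chr9:49196878-49196907, plus strand: acctcccacatGCTCTGCCTcctaacattg
The run was 13 bases at Hnrnpa2b1, oligo positions 2 to 14, with its middle 3.5 bp from the summit. It was 8 bases at Lin54, positions 6 to 13, at 12 bp, and 8 bases near Cryba4, positions 5 to 12, at 5 bp. At Drd2 the run of 9 bases lay 82.5 bp from the summit. At the other 7 of these sites examined the longest run was 5 or 6 bases, 5 at Sgol1. A run of at least 8 bases was present in 22 of 50 Gm13150 windows of median copy number 1 (44.0%, 31.2% to 57.7%) and in 34 of 154 such Gm21082 windows without a copy (22.1%, 16.3% to 29.3%). The share was 13.3% in other F9 windows of median copy number 1. The middle of the run was within 25 bp of the summit in 14 of the 22 and 18 of the 34, and in 28.5% of the 3681 other F9 windows with such a run. Of these runs 21 of 22, 26 of 34 and 80.3% ended at or before position 14 of the oligo, 5′ of the palindrome, so a position in its 5′ part was usual in the background too. The length of the run was set after the values were seen.

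The palindrome lay in few windows of median copy number 1, though in a larger share of the Gm21082 ones than of the background. TGACGTCA was present in 0 of 50 Gm13150 windows of median copy number 1 (upper Wilson limit 7.13%) and in 4 of 154 such Gm21082 windows (2.60%, 1.01% to 6.49%), against 0.304% of the other F9 windows of that kind. It was within 25 bp of the summit in 3 of these 4 Gm21082 windows, and in 22.6% of the 84 other F9 windows that held it. The commonest 10-base word in the Gm13150 windows, with single-base runs left out, was CTGCCTCCCA on either strand, whose first bases CTGCCT are positions 4 to 9 of the oligo. It occurred in 11 of 50 (22.0%, 12.8% to 35.2%), within 25 bp of the summit in 10, against 0.67% of other F9 windows of median copy number 1. In the Gm21082 windows of this kind it occurred in 6 of 154 (3.90%), each time within 25 bp of the summit. The commonest word in those Gm21082 windows was CATCAGCTGG, in 9 of 154 (5.84%, 3.10% to 10.7%), all within 25 bp of the summit, against 0.0471% of the other F9 windows. It occurred in 2 of the 50 Gm13150 windows, and the longest run it shares with the oligo is 3 bases, TCA. Both words were picked because they were the commonest in these windows. The site near Cryba4 holds CTGCCTCCCA, in capitals, next to the run printed above.
Shared locus chr5:112555584-112555663, plus strand: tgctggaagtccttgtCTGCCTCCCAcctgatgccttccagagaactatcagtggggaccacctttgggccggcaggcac

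A further set of Gm21082 peaks had a multi-copy 200 bp window that held no copy of the oligo. With the whole called peak searched instead of the window, 1844 of the 2211 Gm21082 peaks held a copy, against 1817. The longest run of the oligo in the 216 multi-copy windows without a copy was 29 bases. TGACGTCA lay in 6 of them, at a median of 91 bp from the summit. How many of the 216 windows adjoin a copy or hold a part of one was not tested. The word AGAGGCAGAG, the commonest there, was present on either strand in 177 of these 216 windows (81.9%, 76.3% to 86.5%), at a median of 2 bp from the summit and within 25 bp in all 177. It occurred in none of the 1817 windows with a copy of the oligo and in 8.05% of other F9 multi-copy windows. In those other windows that held it, the word also lay at a median of 2 bp from the summit, and within 25 bp in 96.4%. Its reverse strand, CTCTGCCTCT, shares its first bases CTCTGCCT with positions 2 to 9 of the oligo. The strongest such peak, with a fold of 141.6 at chr4:53377094, lay on a tandem array of this unit with a median copy number of 27, of which 100 bases are given.
Gm21082 peak chr4:53377044-53377143, plus strand: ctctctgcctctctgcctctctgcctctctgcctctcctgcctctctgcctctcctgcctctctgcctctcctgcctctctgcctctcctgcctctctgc
This unit was where Gm21082 met other KRAB-ZFPs. It shared 52 loci with Gm14412 (2.35% of Gm21082 and 1.87% of Gm14412 peaks) and 48 with Zfp810 (2.17% and 19.8%), then 4 with Gm13152, 3 with Gm13247 and 2 with 2610305D13Rik. None of the Gm14412 or Zfp810 loci held a copy of the oligo, and AGAGGCAGAG was present in 52 of 52 and 47 of 48. The word was present in 32.5% of all Zfp810 peaks and 29.2% of all Gm14412 peaks. Zfp810 was assayed with the tag, input and control ChIP of Gm21082, and Gm14412 with C-3XHA, Bowtie2 and another control. Gm13150 shared 3 loci with Gm13152, 2 with Gm13247, 2 with Zfp712 and at most 1 with each of the rest.

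The strongest peaks of each protein held no copy of the oligo. For Gm21082 the largest fold, 212.1 from 711 tags, was in an intron of Grid1, a delta-type glutamate receptor gene, at chr14:35781152. The next was 190.1 between genes at chr13:107074521, with median copy numbers of 7 and 3. Neither was called in another KRAB-ZFP. A fold of 80.05 in an intron of Gm20388 followed the shared sites among windows of median copy number 1. For Gm13150 the largest fold, 80.3 from 273 tags, was 71 bp downstream of the start of Spice1, a centriole duplication gene, and was not shared. It was followed by 74.01 at the start of Esco1, a cohesin acetyltransferase gene, which Gm21082 shared with 30.02. At both the false discovery rate of Gm13150 was 100%, which by its definition means that the swapped calling gave as many peaks of that strength.

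Gm21082 peaks lay mostly between genes. Of all Gm21082 peaks 73.4% were between genes, 24.97% in introns and 2.49% (1.92% to 3.22%) within 1 kb of an annotated transcript start, while of the other F9 peaks 56.3% were between genes, 35.96% in introns and 12.7% within 1 kb of a start. The share near starts rose to 14.2% (9.56% to 20.6%) among windows of median copy number 1. For Gm13150 it was 11.2% of all peaks (6.38% to 18.99%), with the background inside this interval, and 20% (11.2% to 33.04%) of windows of median copy number 1, and in other F9 windows of that kind 17.7%, which lies within both intervals. Besides Lin54 and Hnrnpa2b1, the Gm21082 windows with the largest fold near a start included those at Taf4b, a TFIID subunit gene (50.03, 319 bp upstream), and Ccdc141 (46.0, 350 bp upstream). The other Gm13150 windows of this kind were at Gpd2, the mitochondrial glycerol-3-phosphate dehydrogenase (48.9), Taf4b (36.4), an intron of Tmem63b (31.4, upstream of the start of the processed transcript Gm16172), Diap2 (31.4), Dbn1, an actin-binding protein of dendritic spines (24.8), and Ripk2, a kinase of innate immune signalling (20.0). Where a copy of the oligo in a Gm21082 window lay inside a gene, it had the gene's strand in 102 of 383 cases (26.6%, 22.5% to 31.3%), as did 27.2% of all exact copies in genes. The intervals of these shares overlap.

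Gm21082 peaks per Mb followed the exact copies per Mb over the 21 chromosomes with peaks (Spearman's rho 0.93, a description, since most peaks lie on those copies). They ran from 0.126 per Mb on chromosome Y to 1.14 per Mb on chromosome 16. Gm13150 had no peak on chromosomes 12 and Y, and its counts elsewhere ranged from 2 to 10. Genes in 4 lists were searched for a summit in the gene or within 5 kb, against 2.41% of 22238 protein-coding genes for Gm21082 and 0.261% for Gm13150. Of 26 annotated heterochromatin genes only Cbx3 had one, in both ChIPs, at the site described above. None of 21 pluripotency genes, 8 genes with known IAP insertions or 18 KRAB-ZFP genes of the chromosome 4 cluster had one in either ChIP. At these background shares under 1 gene of each list would be hit, so these counts do not set the lists apart.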

How the data were processed

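ChIP-seq peaks of Gm21082 and Gm13150 were analysed with those of the other KRAB-ZFPs. Per the submitters' processing notes and the labels, the authors mapped reads to mm9 with Bowtie, with the first 3 bases trimmed and the best-match option, placed reads with several equally good positions at random, and called peaks with MACS 1.4.2 against the input and, separately, the control ChIP of the tag, keeping peaks found in both calls. Some of the other F9 samples were mapped with Bowtie2 instead, and some were called at looser thresholds. The authors set each peak to 200 bp around its summit. They deposited for each peak a raw count of tags, a score (10 times the negative log10 of the p-value), the fold enrichment, a ratio, and the false discovery rate as a percent. Positions and called widths are deposited in bp. The values were used as deposited, with no normalization, and their total sequencing depth is unknown.

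From these positions 200 bp windows were read from NCBIM37, which is mm9, with gencode vM1 genes, in Python 3.11.15 with numpy 2.4.6, pandas 2.3.3 and scipy 1.17.1. The oligo was searched on both strands without gaps, with up to 6 mismatches, and up to 3 counted as a copy. Copy number was the exact count of 24-base words on both strands. Loci were shared where windows overlapped by at least 25%. Shares have 95% Wilson intervals. With 1 sample per KRAB-ZFP no test was made. The counting scripts were tested on simulated data. The peaks named were, per protein, the 5 of largest fold, overall and at median copy number 1, the 5 shared loci with the largest smaller fold, and those near gene starts at median copy number 1. The KRAB-ZFPs named shared the most loci or were nearest in multi-copy share. The members and lists were chosen with earlier results of these data known, and words, runs and substitution classes after their values were seen. Alternatives were another overlap, mismatch limit, window, spacing, copy threshold and peak filter. A name with 244 peaks that matched no label, and 1 labelled KRAB-ZFP without peaks, were not used. The zinc fingers of the proteins were not compared here. One peak near a gene start and 1 window sequence that these rules name are not reported here.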

Additional observations from a re-analysis of the deposited data

How the results depend on the processing

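No paired analysis was possible because each KRAB-ZFP had 1 sample, and for the same reason no replicate could be left out. A comparison of the protein sequences was not run. Over 18 results 65 alternatives were computed: 36 moved the value by less than its counting interval and 29 by more. A turn of direction was looked for only in the correlations of mismatches with fold, score and tags, and none occurred there. The alternatives on the false discovery rate and on copies with a word found at a single place were chosen after seeing the data.

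With a score over 200, shared loci were 39.2% of Gm13150 and 1.55% of Gm21082 peaks. The latter share was 1.602% with a fold over 30 and 1.04% with a Gm13150 false discovery rate under 25%; fewer peaks enter each of these. The multi-copy share of Gm21082 was 93.0% with at least 2 copies, 90.1% with at least 100 and 88.3% with 47-base words. That of Gm13150 was 28.6% with a fold over 30 and 29.7% with a score over 200. The share of Gm21082 windows with a copy of the oligo was 75.4% with no mismatch, 86.6% with a fold over 30 and 84.6% with a score over 200. For Gm13150 it was 26.8% and 25.7% under these filters and 71.1% with a false discovery rate under 25%. The share of copies in Gm21082 windows was 79.0% with no mismatch, 33.8% with up to 5 and 9.70% for copies with a word found at a single place. For Gm13150 it was 1.66% with no mismatch and 0.567% for copies with such a word. Summits within 50 bp of an exact copy were 99.5% for Gm21082. Gm21082 summits with a neighbour 3000 to 10000 bp away were 60.7%, and 5000 to 8000 bp away 38.7%. Within 5 kb of a start lay 10.6% of Gm21082 and 28.6% of Gm13150 peaks, and within 1 kb at median copy number 1 14.2% and 20.0%. Spearman's rho of mismatches was -0.25 with the score and -0.26 with the tags of Gm21082 peaks. The cause of these moves was not tested where the alternative's own construction does not give it.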

Other observations

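Most Gm21082 folds were whole multiples of a step: 1763 of 2211 (79.7%) lay within 0.01 of a whole multiple of 2.001, and the smallest, 20.01, was 10 steps. For Gm13150 13 of 98 did so with a step of 1.254. The steps were rounded before this count, and over many steps the rounding error can exceed 0.01. The count for Gm13150 therefore does not show that its folds were less stepped.

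In ES cells, where neither protein was assayed, the share of peaks with a copy of the oligo was, for each KRAB-ZFP taken alone, under the limit that a count of 0 allows. A copy lay in 2 of 480 peaks of Gm14443 (0.417%, limit 0.625%), 2 of 3906 of Gm14419 (0.0512%, limit 0.0768%) and 1 of 1541 of Gm14401 (0.0649%, limit 0.195%), and in none of the peaks of the other 6 KRAB-ZFPs assayed there. Pooled over the ES peaks, the share was 5 of 9122 (0.0548%, 0.0234% to 0.128%). Among the other F9 peaks it was 0.00481% (0.00132% to 0.0175%). The ES peaks were called at other settings, and the source of this difference was not tested. Copies of the oligo with 6 mismatches lay in peaks of other F9 KRAB-ZFPs in 95 of 832 cases (11.4%, 95% Wilson interval 9.43% to 13.8%), and in 0 of 832 cases in those of Gm21082 and Gm13150. For 5 mismatches these counts were 7 of 674 (1.04%) and 0.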
